A study of Rattus norvegicus with 14 samples.

Results

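Of 8 arrays of rat thoracic aorta labelled A-CRF, the adenine-induced chronic renal failure of the series, 3 carried a high level of the clock-controlled transcript Dbp and 5 a low level of it, and these 2 sets were compared. The arrays were A-CRF 6, 7 and 8 (Dbp-high) and A-CRF 1 to 5 (Dbp-low), out of 14 arrays in the series. They were chosen by the deposited value of the Dbp probe set: arrays above 7 log2 units were called Dbp-high. The value was 7.60, 7.64 and 7.61 on the Dbp-high arrays and 6.04, 5.92, 5.63, 5.61 and 5.52 on A-CRF 1 to 5. The lowest array inside the threshold was A-CRF 6 at 7.60, and the highest outside it was A-CRF 1 at 6.04. The 2 sets are not treatment groups, since the labels give all 8 samples the same treatment.

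All animals were Sprague-Dawley rats, and the 6 control samples were labelled Control. RNA came from thoracic aorta as a tissue, so fewer cells of a type and less RNA per cell cannot be told apart. The labels give no age, sex, adenine dose or length of treatment, and no hour at which tissue was taken. The sample titles end in the numbers 16, 17 and 18 for the Dbp-high arrays and in 10, 11, 13, 14 and 15 for the Dbp-low arrays. Nothing in the labels ties a sample to an animal of its own, so the p-values cover the spread among these samples, which may be technical. Smooth muscle markers were bright on every array: the mean of 7 markers was 9.50 to 9.51 on Dbp-high, 9.26 to 9.71 on Dbp-low and 9.58 to 10.18 on control arrays.

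The mammalian clock is a transcriptional loop. Clock (or its relative Npas2) and Bmal1 form a dimer that binds E-box sequences and turns on the Per, Cry, Nr1d1, Nr1d2 and Dbp genes. Per and Cry proteins repress that dimer, and the Rev-erb receptors made by Nr1d1 and Nr1d2 repress Bmal1, Npas2 and Nfil3 through a receptor element called RORE. The PAR bZIP factors Dbp, Tef and Hlf activate genes through a D-box, where Nfil3 represses. The loop runs in vascular smooth muscle as in most tissues, and its activator and repressor arms peak at different times of day.

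The elements named above were searched in the 250 bases before each annotated gene start in RefSeq (build GRCr8), on both strands. Of 18 measured circadian genes, 16 had an entry, with 18 start sites, and Hlf and Cry1 had none. The E-box letters CACGTG read the same on both strands. They were found before 4 of the 16 genes, in 4 of their 18 windows, and in 5.59% of all 33469 windows. The D-box letters TTATGTAA or TTACGTAA were found before 1 gene, in 1 of the 18 windows, and in 0.932% of all windows. The RORE core TAGGTCA was found before 1 gene, in 1 of the 18 windows, and in 2.26% of all windows. No match of 1 motif overlapped a match of another in these 18 windows, and a match describes letters, not a bound site. Stretches of 60 bases are shown because each holds the element of 1 arm of the loop, with the motif in capitals. The Bhlhe40 stretch lies at chr4:143174203-143174262 on the plus strand, Bhlhe41 at chr4:180569371-180569430 on the minus strand, Tef at chr7:115206602-115206661 on the plus strand and Nr1d1 at chr10:84229613-84229672 on the minus strand, before 1 of its 2 annotated starts. The Per2 stretch lies at chr9:99497152-99497211 on the minus strand and Bmal1 at chr1:176766268-176766327 on the plus strand.
Bhlhe40 (E-box): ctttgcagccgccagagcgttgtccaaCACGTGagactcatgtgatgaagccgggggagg
Bhlhe41 (E-box): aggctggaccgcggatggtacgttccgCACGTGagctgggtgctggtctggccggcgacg
Tef (E-box): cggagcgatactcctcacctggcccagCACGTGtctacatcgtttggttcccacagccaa
Nr1d1 (E-box): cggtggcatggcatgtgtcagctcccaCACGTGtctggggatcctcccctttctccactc
Per2 (D-box): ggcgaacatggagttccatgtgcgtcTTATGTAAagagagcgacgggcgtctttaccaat
Bmal1 (RORE core): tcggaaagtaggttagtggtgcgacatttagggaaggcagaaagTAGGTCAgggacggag
Of the 4 genes with an E-box, Bhlhe41, Tef and Nr1d1 were higher on every Dbp-high array, while Bhlhe40 overlapped between the sets. Per2, with a D-box, was higher and Bmal1, with a RORE core, lower, with the values given next. The window before Dbp held none of the 3 motifs.

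Dbp chose the arrays, and the other circadian genes are known to move with it. These genes are therefore described with their values and no test of their own. They stay in the fit over all probe sets given below, where their calls are no test of the split. Among the PAR bZIP factors, Dbp averaged 7.61 ± 0.02 log2 units on the Dbp-high arrays (SD, n = 3) and 5.74 ± 0.22 on the Dbp-low arrays (SD, n = 5), a 3.66-fold difference. Hlf was at 6.64, 6.82 and 6.84 on Dbp-high and at 5.97, 5.56, 5.36, 5.44 and 5.53 on Dbp-low arrays, a difference of 1.19 log2 units. Tef was at 7.16, 7.24 and 7.23 against 6.54, 6.31, 6.43, 6.48 and 6.29, a difference of 0.80. Dbp separates the arrays by construction. Hlf and Tef, which with Nr1d2 are the other markers of the split, also had no overlap. These markers are known to move with Dbp, so their values are no independent check of the split.

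The Rev-erb receptor gene Nr1d2 was at 8.10, 8.21 and 8.16 on Dbp-high arrays and at 6.93, 6.99, 6.87, 6.52 and 6.45 on Dbp-low arrays, which is 2.64-fold higher. Nr1d1, its paralogue, was at 7.09, 7.03 and 6.76 against 6.62, 6.33, 6.03, 6.03 and 5.86, with no overlap and a gap of only 0.14 between A-CRF 8 and A-CRF 1. Their target Nfil3, the D-box repressor, went the other way, at 5.89, 6.22 and 6.17 on Dbp-high and at 6.97, 6.38, 6.996, 8.01 and 6.55 on Dbp-low arrays. The activating receptor Rora overlapped between the sets, with a difference of 0.14, and its relative Rorb lay near the bottom of the scale on all arrays.

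Among the repressors, Bhlhe41 (also called Dec2) was at 7.68, 7.75 and 7.63 on Dbp-high arrays and at 6.25, 6.34, 6.13, 6.19 and 6.17 on Dbp-low arrays. The difference was 1.47 ± 0.05 log2 units (SE), with no Dbp-low array within 1 unit of any Dbp-high array. Per2 was at 7.82, 7.81 and 7.90 against 6.999, 6.96, 6.78, 6.78 and 6.97, a difference of 0.95. The brightest probe sets of Per1, Cry1, Cry2 and Bhlhe40 overlapped between the sets. Per1 was at 6.85, 7.14 and 7.03 on Dbp-high and 6.61 to 7.33 on Dbp-low arrays, Cry1 differed by -0.12, Cry2 by 0.13 and Bhlhe40 by 0.36.

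The activator Bmal1 was lower on the Dbp-high arrays, at 5.41, 5.36 and 5.34 against 5.77, 5.75, 5.90, 5.77 and 5.86 on the Dbp-low arrays. Its difference of -0.44 log2 units was measured less than 1 log2 unit above the bottom of the table (4.82), where differences may be compressed. Npas2 was also lower, at 6.67, 6.77 and 6.46 against 7.56, 7.07, 6.77, 7.18 and 7.47, and here A-CRF 7 and A-CRF 3 almost met. Clock, the third activator, overlapped with a difference of -0.22.

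Of the 18 genes 9 had more than 1 probe set, and these did not all differ alike. Of 33 circadian probe sets, 14 were higher and 4 lower on the Dbp-high arrays without overlap, beside 5.03% and 7.39% of all 31042 probe sets. Nr1d2, Tef and Hlf each had at least 2 further probe sets with a higher value on all 3 Dbp-high arrays, at differences of 0.10 to 1.03. For Per3 the brighter probe set was flat (difference -0.03), whereas the dimmer one was at 6.16, 6.23 and 6.11 on Dbp-high and at 5.38 to 5.68 on Dbp-low arrays, a difference of 0.68. A second probe set of Per2 differed by -0.06 and one of Hlf by -0.02, both at values below 5.84, and a second one of Cry2 by -0.10 without overlap.

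**Figure D1:**
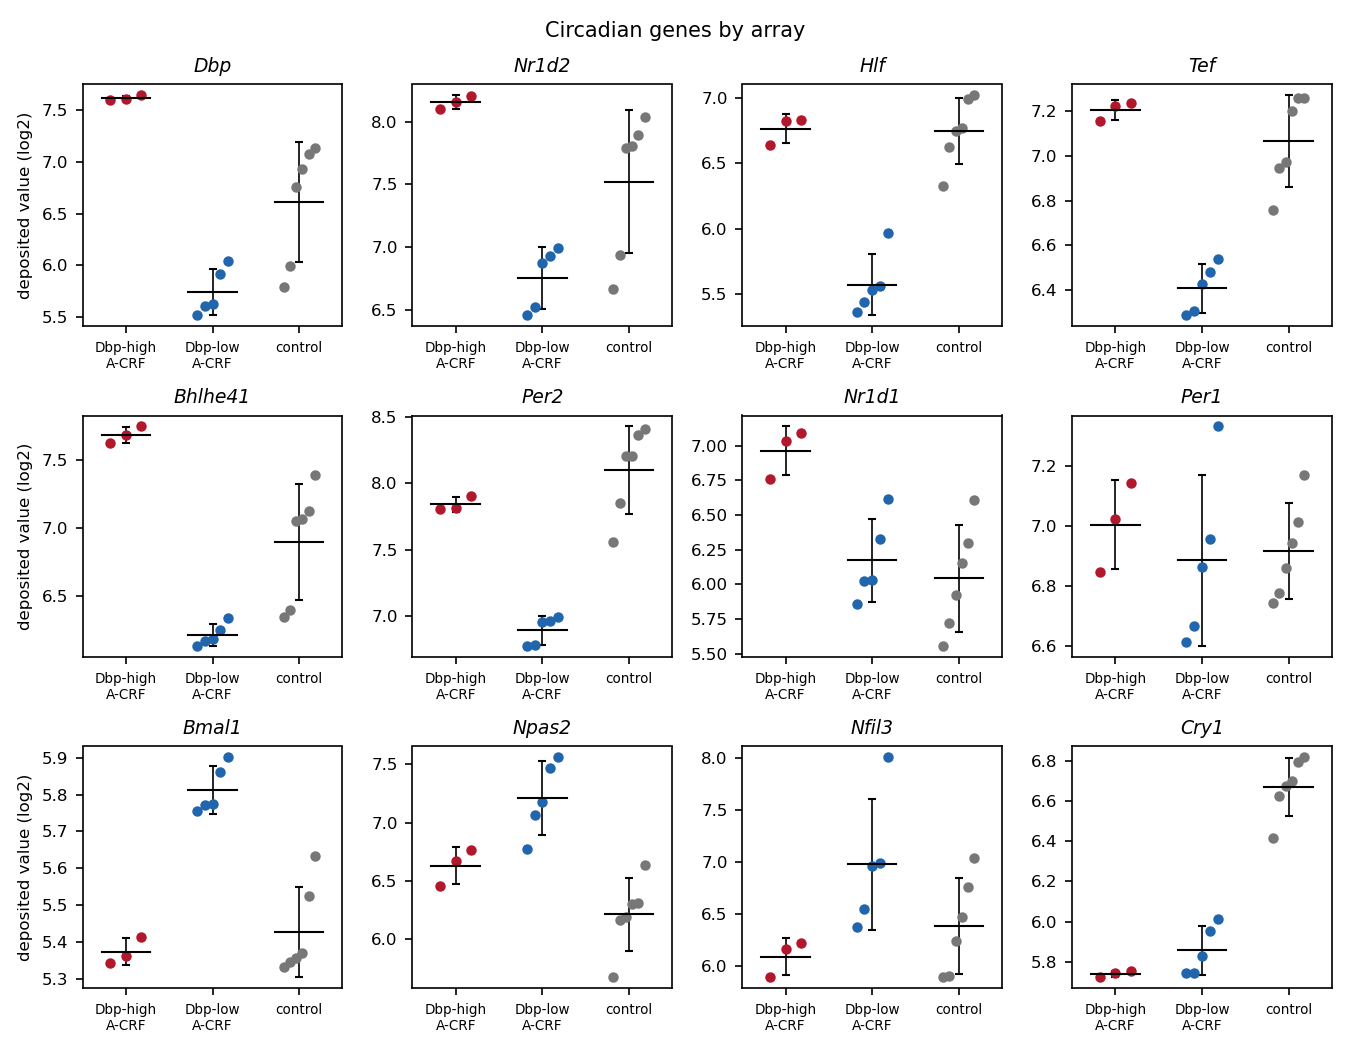
Deposited log2 values (y axis) of 12 circadian genes on the 3 Dbp-high, 5 Dbp-low and 6 control arrays (points), with the mean (line) and SD (bar). Dbp, Nr1d2, Hlf, Tef, Bhlhe41, Per2 and Nr1d1 were higher and Bmal1, Npas2 and Nfil3 lower on every Dbp-high array than on any Dbp-low array; Per1 and Cry1 overlapped.

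The control arrays, which took no part in the split, also differed among themselves in these genes. Dbp was at 5.79 and 5.99 on Control 1 and 6 and at 6.75, 7.13, 6.93 and 7.07 on Control 2 to 5, of which Control 3 and 5 exceed 7. On Control 1 and 6, Nr1d2 was at 6.67 and 6.94 against 7.79 to 8.03 on the other 4, and Bhlhe41 at 6.34 and 6.40 against 7.06 to 7.39. Per2 was at 7.56 and 7.86 there against 8.20 to 8.41, and Bmal1 at 5.63 and 5.53 against 5.33 to 5.37. For these 5 genes Control 1 and 6 lay apart from the other 4, whose own order differed from gene to gene. Nr1d1, at 5.72 and 5.55 on Control 1 and 6 against 5.92 to 6.61, also set them apart. So did Tef, at 6.76 and 6.95 against 6.97 to 7.26. The dimmer Per3 probe set, Bhlhe40 and Cry2 were lower and Clock higher on Control 1 and 6 than on the other 4. Not every circadian gene set them apart: Hlf was at 6.75 on Control 6 and 6.63 on Control 2, and Npas2 at 6.30 on Control 6 lay between Control 2 and Control 4.

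The Dbp-high arrays did not simply match the controls. Cry1 was at 5.72 to 5.75 on Dbp-high and 5.74 to 6.01 on Dbp-low arrays, all below the control range of 6.41 to 6.82. Per2 on the Dbp-high arrays, at 7.81 to 7.90, lay below 4 of the 6 controls. Npas2 on the Dbp-high arrays lay above 5 of the 6 controls, and Nr1d1, Dbp and Bhlhe41 lay above all 6 controls. Tef and Hlf on the Dbp-high arrays lay within the control range, and Nr1d2, at 8.10 to 8.21, lay above its upper end of 8.03.

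Across all probe sets, 12 passed an adjusted p of 0.05 (limma, Benjamini-Hochberg over 31042 probe sets), which is 0.0387%. Of these, 10 were higher and 2 lower on the Dbp-high arrays, at 0.0322% and 0.00644%. Circadian genes held 8 of the 12, of which Dbp was fixed by the rule. They were Dbp, Bhlhe41, Per2, Tef, Nr1d2, Per3 (the dimmer probe set) and Hlf on the higher side and Bmal1 on the lower side. Since Dbp chose the arrays and these genes are known to move with it, their count is a description and nothing is read from it. The same holds for their calls kept or lost in the fits that follow. Of 21 alternatives, the call was lost in 5 for Bmal1, 10 for Hlf, 8 for Nr1d2, 3 for Tef, 2 for Per2 and 0 for Bhlhe41. Leaving out A-CRF 7 lost Dbp, Bmal1, Hlf, Nr1d2, Tef and Per2, and leaving out A-CRF 8 lost Bmal1, Hlf, Nr1d2 and Tef. Leaving out A-CRF 6 lost Bmal1, Hlf and Nr1d2, A-CRF 3 lost Hlf and Nr1d2, and A-CRF 2, 4 or 5 lost Hlf. Another 2 belonged to Arhgap24 and C1qtnf7. The last 2 were a probe set that the platform annotation ties to 2 gene entries, both called Mars2, at 0.25 log2 units, and one with no symbol at -0.65. An unadjusted p below 0.05 was reached by 5043 probe sets (16.2%), 2412 higher (7.77%) and 2631 lower (8.48%). The count of 12 was 6, 1 and 4 without A-CRF 3, 7 or 8 and 8 to 17 without any other array.

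**Figure D2:**
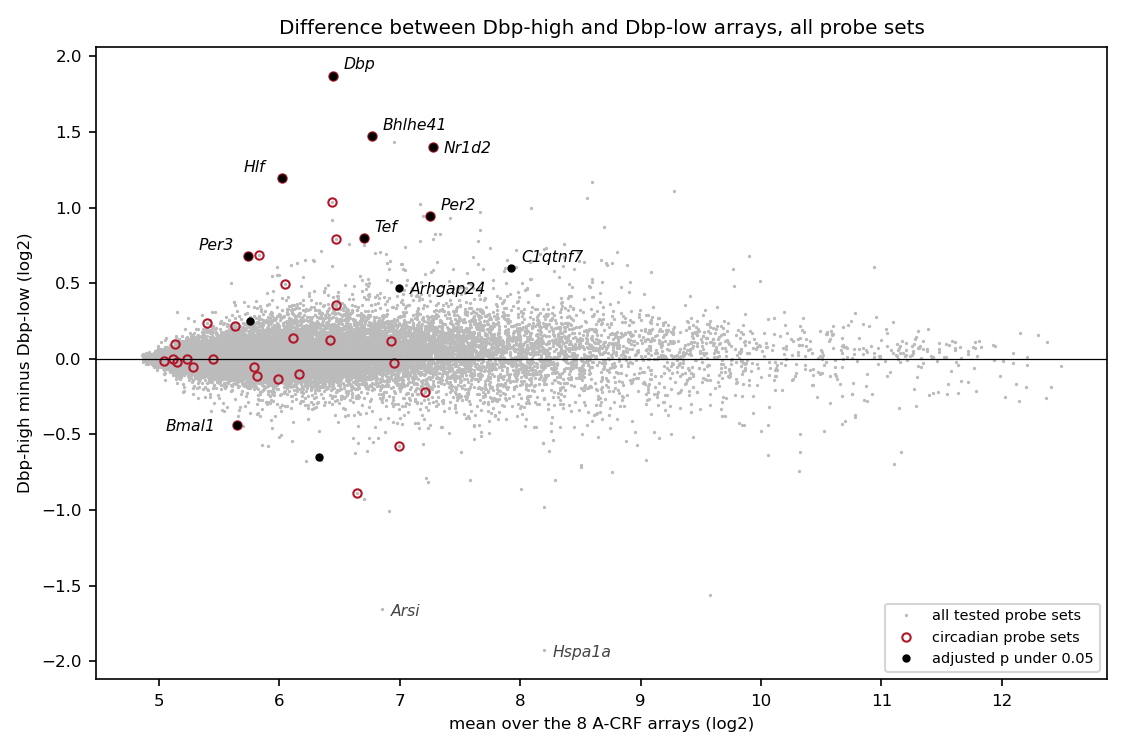
Difference between Dbp-high and Dbp-low arrays (y axis, log2) against the mean over the 8 A-CRF arrays (x axis, log2) for 31042 probe sets, with circadian probe sets ringed in red and the 12 probe sets past an adjusted p of 0.05 in black. Of the black points 8 are ringed; Arsi and Hspa1a, labelled in grey, have the lowest differences on the plot and did not pass.

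RNA quality and fat markers varied among the arrays, with ranges that overlapped between the sets. The GAPDH 3' minus 5' difference, which grows as transcripts are shortened, was 0.37 to 0.41 on Dbp-high arrays. On Dbp-low arrays it was 1.90 on A-CRF 1, 1.63 on A-CRF 4 and 0.37 to 0.46 on the other 3 (difference of means -0.57, two-sided exact permutation test, p = 0.21, smallest possible p 0.036). Spike-in probe sets averaged 8.88 to 9.003 on Dbp-high and 8.18 to 8.91 on Dbp-low arrays (exact permutation p = 0.071). The array median was 5.621 on Dbp-high and 5.630 on Dbp-low arrays (exact permutation p = 0.036), and the actin 3' minus 5' difference was 2.27 and 2.62 (exact permutation p = 0.46). Over the 5 measures compared, including the fat markers given next, the lowest Benjamini-Hochberg adjusted value of these exact tests was 0.18. Without A-CRF 1 and 4, 14 probe sets passed, naming 6 circadian genes, and with the GAPDH difference as a covariate 4 passed, all circadian. The circadian genes are tied to the split by Dbp, so their passing is no check on RNA quality and nothing is read from it. Correlations between arrays over all probe sets, a description only, were 0.9947 to 0.9972 within the Dbp-high set (median 0.9965), 0.9812 to 0.9936 within the Dbp-low set (median 0.9866) and 0.9787 to 0.9946 between the sets (median 0.9892).

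The mean of 9 white adipocyte markers was 7.55 to 8.14 on Dbp-high and 6.75 to 8.03 on Dbp-low arrays, with overlap (exact permutation p = 0.25). Of the 9 markers 8 had a difference above 0, with a median of 0.57 against -0.012 over all 14217 named genes, and none passed the test (limma, 1 at an unadjusted p below 0.05). The adipokine Adipoq was at 8.94, 8.18 and 8.37 on Dbp-high and at 8.24, 7.35, 9.02, 6.996 and 7.64 on Dbp-low arrays, so A-CRF 3 was as rich in this transcript as any Dbp-high array. Ucp1, the uncoupling protein of brown fat, was at 9.75 on A-CRF 1, at 5.31 to 6.15 on the other Dbp-low arrays and at 7.46 to 8.42 on the Dbp-high arrays. With the white adipocyte mean as a covariate 7 probe sets passed, naming 4 circadian genes. These circadian genes are tied to the split by Dbp, so their passing is no check on the part of fat.

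**Figure D3:**
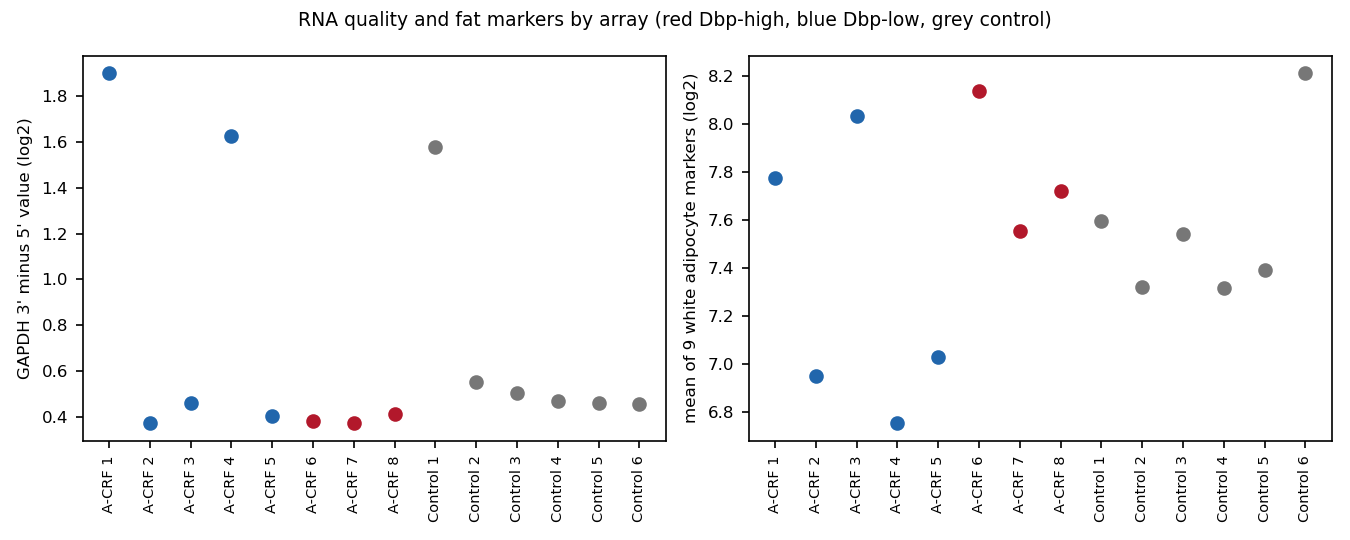
GAPDH 3' minus 5' difference (left, log2) and mean of 9 white adipocyte markers (right, log2) on each of the 14 arrays, with Dbp-high in red, Dbp-low in blue and control in grey. A-CRF 1, A-CRF 4 and Control 1 stand at 1.58 to 1.90 on the left and all others at or below 0.55; on the right the red points lie within the range of the blue and grey ones, from 6.75 to 8.21.

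Outside the clock, 2 named genes rose on the Dbp-high arrays. Arhgap24, a GTPase-activating protein for Rac, was at 7.23, 7.33 and 7.31 on Dbp-high and at 6.81, 6.89, 6.81, 6.73 and 6.87 on Dbp-low arrays. The difference was 0.47 ± 0.04 log2 units (SE; limma, adjusted p = 0.022). C1qtnf7, a secreted protein of the C1q and TNF-related family, was at 8.26, 8.31 and 8.32 against 7.64, 7.62, 7.60, 7.74 and 7.89, a difference of 0.60 ± 0.07 (adjusted p = 0.043). On the control arrays Arhgap24 was at 7.16 and 7.05 on Control 1 and 6, the 2 lowest in Dbp, and at 6.46 to 6.97 on the other 4, so there it was higher where Dbp was lower. C1qtnf7 was at 8.11 and 8.17 on Control 1 and 6 and at 7.37 to 8.19 on the other 4. The call of Arhgap24 was lost without A-CRF 3, 6, 7 or 8 (adjusted p 0.054 to 0.23). That of C1qtnf7 was lost without any single array other than A-CRF 5 (adjusted p 0.067 to 0.39).

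The next genes on the higher side, chosen after their values were seen, did not pass. Slc16a7, a monocarboxylate transporter, differed by 0.39 ± 0.05 log2 units and Tcap, the sarcomere protein telethonin, by 0.42 ± 0.05 (adjusted p = 0.054 for each). Angpt2, a ligand of the endothelial receptor Tie2, differed by 0.70 ± 0.09 (adjusted p = 0.094), with 6.98, 7.38 and 7.35 on Dbp-high and 6.40 to 6.57 on Dbp-low arrays. Mtus2, Fam76a and Smim8 differed by 0.38, 0.41 and 0.18. On the control arrays Tcap was at 6.24 and 6.34 on Control 1 and 6 and 6.67 to 6.999 on the other 4.

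For the gene lists that follow, the background is that 43.2% of all 14217 named genes had a difference above 0, 5.65% were higher and 7.55% lower without overlap, and the median was -0.012. For the counts at an unadjusted p below 0.05 (limma), it is the 16.2% of all probe sets that reached this. Of 9 measured clock output genes none passed in limma (6 at an unadjusted p below 0.05), 8 had a difference above 0 and the median was 0.29 log2 units. Output genes are known to follow the clock, so these counts are no independent check of the split by Dbp. Wee1, a mitotic kinase gene under E-box control, was at 7.10, 7.10 and 7.33 on Dbp-high and at 6.25, 6.61, 6.26, 6.40 and 6.61 on Dbp-low arrays. Its difference was 0.75 ± 0.11 (adjusted p = 0.098), and a second probe set gave 0.65. The sets did not overlap, and all 6 controls, at 6.95 to 7.64, lay above the Dbp-low arrays. Of 4 clock kinase and ubiquitin ligase genes none passed in limma (0 at an unadjusted p below 0.05), and the difference farthest from 0 was -0.10 for the casein kinase gene Csnk1e.

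Among 18 glucocorticoid response genes, which share Per1 and Tsc22d3 with the clock lists, none passed, 12 were above 0 and the median was 0.12. At an unadjusted p below 0.05 (limma) there were 5 of these. Klf9, a glucocorticoid-induced Kruppel-like factor, differed by 0.48 ± 0.12 (adjusted p = 0.25) with no overlap, and the metallothionein gene Mt2A by -0.86 ± 0.35 (adjusted p = 0.29), also with no overlap. Fkbp5 and Sgk1 belong to the same list, and the arrays overlapped for both. Of 20 immediate early genes none passed (4 at an unadjusted p below 0.05) and 17 were below 0, with a median of -0.20. Nr4a3, an orphan nuclear receptor gene, was at 5.89, 6.05 and 5.86 on Dbp-high and 6.29 to 7.01 on Dbp-low arrays. On Control 1 and 6, the controls lowest in Dbp, it was at 5.86 and 5.68, against 6.56 to 8.75 on Control 2 to 5. Among controls Nr4a3 was thus lower where Dbp was lower.

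On the lower side, the only named gene past the threshold was Bmal1, and the genes that follow did not pass. Arsi, of the arylsulfatase family, was at 5.90, 5.83 and 5.73 on Dbp-high and at 6.97, 7.66, 7.14, 8.13 and 7.49 on Dbp-low arrays. Its difference of -1.66 ± 0.24 log2 units had an adjusted p of 0.10, and all 6 controls, at 5.48 to 5.80, lay beside the Dbp-high arrays. Arsi passed in 3 of 21 alternatives, with array weights (0.031), without A-CRF 1 and 4 (0.026) and in the fit of all 14 arrays (0.017). It passed in 0 of the 8 fits that left out 1 array, and the adjusted p reached 0.51 without A-CRF 7. Gja5, the endothelial connexin 40, differed by -0.30, the kinase Map4k4 by -0.32, and Pmepa1, a gene induced by TGF-beta, by -0.27. Nxph3, Pkp3 and Pakap followed with -0.15, -0.10 and -0.37. Other probe sets of Gja5 (-0.01), Map4k4 (-0.07 and -0.03) and Nxph3 (-0.03) overlapped between the sets. Further probe sets of Pakap gave -0.41 and -0.30 without overlap and -0.10 with overlap.

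The heat shock genes held the lowest difference of all probe sets. Hspa1a, the inducible Hsp70, was at 6.73, 7.15 and 7.11 on Dbp-high and at 10.07, 8.98, 8.10, 9.22 and 8.23 on Dbp-low arrays, without overlap. The difference of -1.93 ± 0.43 had an adjusted p of 0.25 in limma, and it was -1.44 without A-CRF 1 and 4. Hspa1a was at 7.63 and 7.20 on Control 1 and 6, the controls lowest in Dbp. It was at 8.98 to 10.68 on Control 2 to 5, so among controls it was lower where Dbp was lower. Of 14 heat shock genes none passed in limma (3 at an unadjusted p below 0.05) and 9 were below 0, with a median of -0.08. The cochaperone genes Dnaja1 and Bag3, at -0.70 and -0.48, did not overlap either. Dnaja1 was at 8.03 and 7.95 on Control 1 and 6 and at 8.63 to 10.26 on Control 2 to 5. Bag3 was at 8.29 and 7.89 against 8.13 to 9.76, with overlap.

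Cell cycle genes and inhibitors had no member past the threshold, with 14 of 19 cell cycle genes and 2 of 12 G1 cyclin and inhibitor genes (median -0.05) at an unadjusted p below 0.05 (limma), beside 16.2% of all probe sets. Cdkn1a, the p21 cyclin-dependent kinase inhibitor, was at 7.01, 7.16 and 7.07 on Dbp-high, 7.56 to 8.62 on Dbp-low and 6.38 to 6.87 on control arrays (difference -0.80 ± 0.23, adjusted p = 0.25). Of 19 cell cycle genes all had a difference below 0, with a median of -0.16, and 10 were lower without overlap, beside 7.55% of all named genes. All but 3 of the 19 were dim, with a mean less than 1 log2 unit from the bottom of the scale, and the proliferation marker Mki67 was at 5.49 to 5.57 on Dbp-high, 5.66 to 6.27 on Dbp-low and 5.41 to 5.45 on control arrays.

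**Figure D4:**
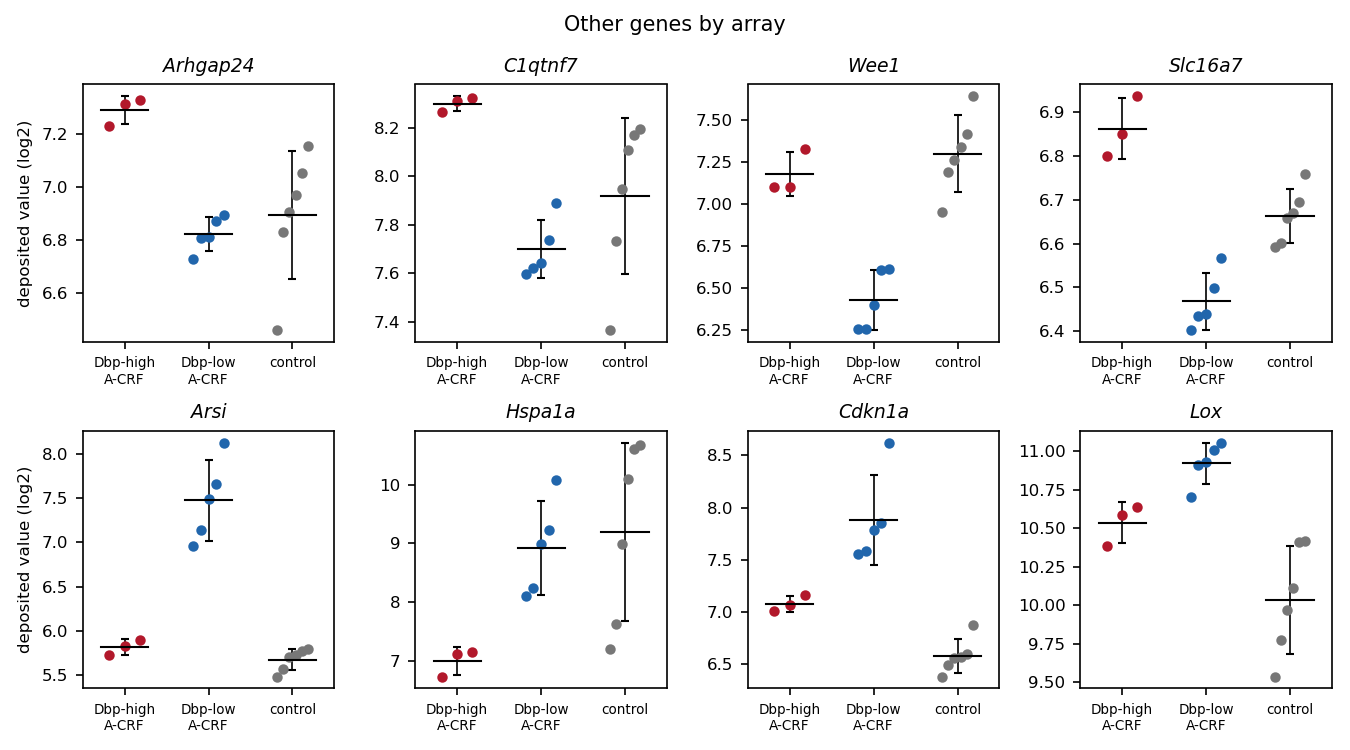
Deposited log2 values (y axis) of 8 genes outside the core clock on the 3 Dbp-high, 5 Dbp-low and 6 control arrays, with the mean (line) and SD (bar). Arhgap24 and C1qtnf7 passed an adjusted p of 0.05; the other 6 did not, and Arsi on the Dbp-high arrays (5.73 to 5.90) lies near the control range (5.48 to 5.80).

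No matrix gene passed the test. At an unadjusted p below 0.05 (limma), reached by 16.2% of all probe sets, there were 3 of 7 fibrillar collagens, 2 of 14 collagen processing genes, 0 of 16 elastic fibre genes, 4 of 15 matricellular genes (median -0.16) and 7 of 16 proteases and inhibitors. All 7 fibrillar collagen genes had a difference below 0 (median -0.19), as did 12 of 14 genes of collagen processing (median -0.15) and 13 of 16 matrix proteases and inhibitors (median -0.19), against -0.012 over all named genes. The membrane-bound collagenase gene Mmp14 was at 8.43, 8.65 and 8.54 on Dbp-high, 8.93 to 9.42 on Dbp-low and 8.19 to 8.57 on control arrays, a difference of -0.55 ± 0.11 (adjusted p = 0.25). Lox, the cross-linking enzyme of collagen and elastin, was at 10.64, 10.39 and 10.59 against 10.70 to 11.05, and a second probe set gave -0.43. Col1a1, a chain of collagen I, differed by -0.41 ± 0.23 and overlapped. Elastic fibre genes had a median of -0.05, with Eln at -0.74 ± 0.48, highest on A-CRF 1 and 4, the 2 arrays with shortened GAPDH transcripts. A second probe set of Eln differed by -0.26 and was highest on A-CRF 5 at 9.50, with 8.67 and 8.66 on A-CRF 1 and 4. Postn, a matricellular protein, differed by -0.69 ± 0.20 (adjusted p = 0.25), and its arrays overlapped at A-CRF 1.

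Macrophage markers were all 16 below 0, with a median of -0.21 and 3 lower without overlap (7.55% of all named genes), and none passed in limma (5 at an unadjusted p below 0.05). Their mean was 7.15 to 7.29 on Dbp-high, 7.22 to 7.57 on Dbp-low and 6.77 to 6.96 on control arrays. The leukocyte phosphatase gene Ptprc was at 6.16 to 6.18 on Dbp-high and 6.27 to 6.52 on Dbp-low arrays. Of 18 inflammatory mediators none passed (4 at an unadjusted p below 0.05) and 15 were below 0, and the monocyte chemokine Ccl2 was at 5.81, 5.60 and 5.67 against 5.95 to 6.57 (difference -0.51 ± 0.14). Endothelial markers had a median of -0.12 and 1 of 11 lower without overlap, a share near that of all named genes. The T cell, B cell, neutrophil and mast cell lists were mostly dim, within 1 log2 unit of the bottom of the scale, with medians of -0.06, -0.05, -0.03 and -0.05.

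Genes of contraction and its control held no call. Of 21 smooth muscle contractile genes none passed in limma (1 at an unadjusted p below 0.05) and none was without overlap, with a median of -0.03. Acta2 differed by 0.13 ± 0.14 and Myh11 by 0.12 ± 0.09, and the largest difference was -0.38 ± 0.17 for desmin, Des. Of 26 excitation-contraction coupling genes none passed (4 at an unadjusted p below 0.05), 13 were above and 13 below 0, and 1 was higher and 2 were lower without overlap, shares near those of all named genes (5.65% and 7.55%). The calcium release channel gene Itpr1 differed by 0.28. In cyclic nucleotide signalling none of 20 passed (4 at an unadjusted p below 0.05). Both subunit genes of the nitric oxide receptor stood without overlap on the higher side, Gucy1a1 at 0.63 ± 0.20 and Gucy1b1 at 0.46 ± 0.13 (adjusted p = 0.25 for each). Gucy1a1 was at 9.04, 9.15 and 9.12 on Dbp-high and 8.09 to 8.94 on Dbp-low arrays, all below the control range of 9.35 to 9.62. None of 17 vasoactive receptor genes passed or stood without overlap (1 at an unadjusted p below 0.05).

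Several metabolic genes are also expressed in fat, whose markers are given above, and the part of fat in these values was not tested. All 15 respiratory chain genes had a difference above 0 (median 0.17), beside 43.2% of all named genes, and 2 were higher without overlap (5.65% of all named genes), among them the cytochrome oxidase subunit Cox5a at 0.34 ± 0.06 (adjusted p = 0.24). Of 12 lipolysis and lipid droplet genes 10 were above 0 (median 0.26), and the lipid droplet protein Cidec differed by 0.71 ± 0.35. The gluconeogenic enzyme Pck1, also a fat marker, differed by 1.17 ± 0.47, and by 0.46 with the white adipocyte covariate. That covariate is a mean that includes Pck1 itself, so a drop is partly built in and nothing is read from it. Fatty acid oxidation genes had a median of 0.16, with the pyruvate dehydrogenase kinase Pdk4 at 0.79 ± 0.34, and fatty acid synthesis genes a median of 0.05. All 14 cholesterol genes were below 0 (median -0.19), with Cyp51 at -0.53 ± 0.22. None of the genes in these lists passed in limma. At an unadjusted p below 0.05 there were 3 respiratory chain, 1 lipolysis, 2 fatty acid oxidation, 0 fatty acid synthesis and 5 cholesterol genes.

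**Figure D5:**
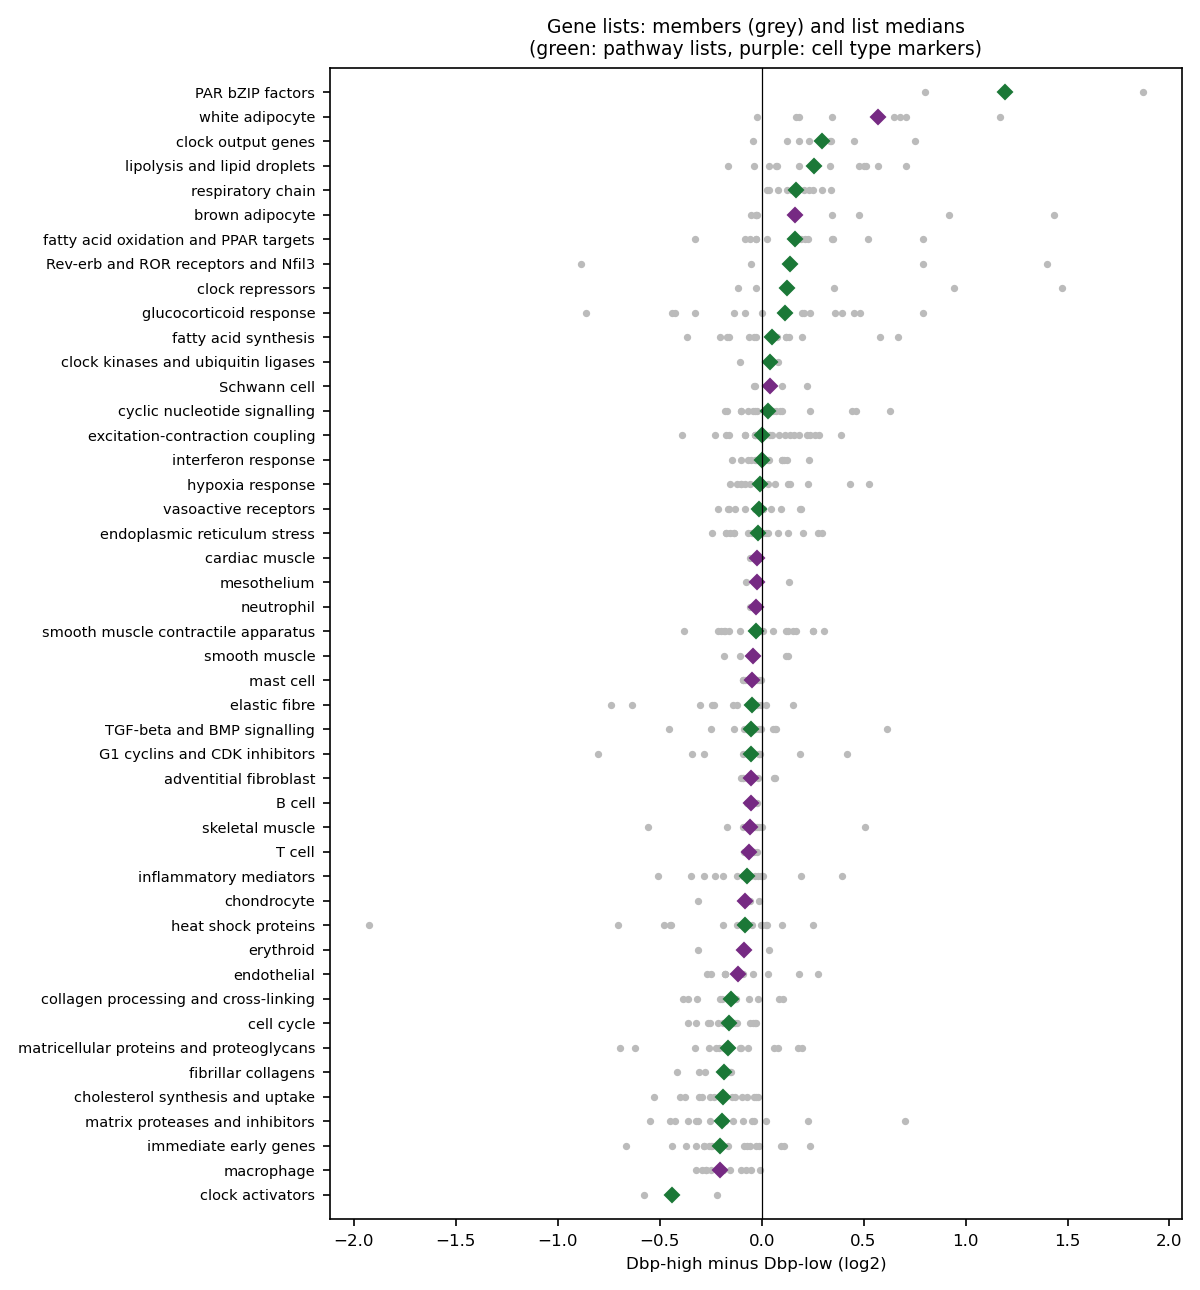
Differences between Dbp-high and Dbp-low arrays (x axis, log2) for the measured members (grey points) and the median (diamond) of each gene list, with 30 pathway lists in green and 16 cell type marker lists in purple. The PAR bZIP factors have the highest median (1.19) and the clock activators the lowest (-0.44); the white adipocyte list stands at 0.57, and all other medians lie between -0.21 and 0.29.

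In the remaining pathway lists no gene passed in limma, with 3 of 16 hypoxia, 5 of 16 endoplasmic reticulum stress, 2 of 17 interferon and 1 of 17 TGF-beta and BMP genes at an unadjusted p below 0.05. Hypoxia response genes had a median of -0.01, with the mitophagy receptor Bnip3 at 0.53 ± 0.17 and no overlap. Endoplasmic reticulum stress genes had a median of -0.02, with Herpud1, which is also in the clock output list, at 0.29 ± 0.07. Interferon genes had a median of -0.00054, with Mx2 at 0.23 ± 0.16. TGF-beta and BMP signalling genes had a median of -0.05, with the inhibitor of differentiation Id2 at 0.61 ± 0.38 and a second probe set of Id2 at -0.0053. Among the other cell type markers the medians were 0.16 for brown adipocytes, -0.06 for skeletal muscle, -0.02 for cardiac muscle, -0.05 for adventitial fibroblasts, -0.04 for smooth muscle and 0.04 for Schwann cells. They were -0.09 for erythroid cells, -0.02 for mesothelium and -0.08 for chondrocytes, and no member of these lists passed.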

How the data were processed

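RNA of 14 thoracic aorta samples was measured on Affymetrix rat arrays, 1 per sample. The deposited values are log2 probe set summaries by the authors; the submitters' processing notes name PLIER without a version. The log base was inferred from the range, 4.82 to 12.64, and the sources used here do not give background correction, normalization or offset. After 57 control probe sets were left out, 31042 were tested and 14217 genes named, each by its brightest probe set with 1 symbol in the platform annotation, which can be old (20826 probe sets had 1 symbol, 436 several and 9780 none). There is no sequencing depth, and the number of arrays limits precision.

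Dbp-high and Dbp-low arrays were compared with limma 3.58.1 (R 4.3.3; lmFit, eBayes, two-sided, 6 residual degrees of freedom), checked on simulated data. Differences are Dbp-high minus Dbp-low in log2 units. "No overlap" means that all 3 Dbp-high values lie on one side of all 5 Dbp-low values. The split and the 30 pathway and 16 marker lists were chosen with earlier results of these data known. Named were up to 12 called genes each way with no overlap and a mean above the median of 5.63, filled to 8 each way by smallest p and passing over LOC and RGD symbols and pseudogenes, then up to 4 called members of each list, or the 1 with the largest change, and all circadian genes. List members named beside these, and 6 further rises, were chosen after their values were seen. Alternatives changed the normalization, offset, filter, eBayes options, weights, samples, covariates and probe sets.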

Additional observations from a re-analysis of the deposited data

Results flagged for a closer look

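Among 75 named genes, each looked at in the 5 Dbp-low and the 6 control arrays (150 sets of values), 13 of these sets had 1 array standing far from the others, and chance alone gives about 1 in 20 sets. On A-CRF 4, 1 of the 2 Dbp-low arrays with shortened GAPDH transcripts, Cdkn1a was at 8.62 (next 7.86), Adamts1 at 9.23 (next 8.49) and Herpud1 at 7.84 (next 7.61), all above the other Dbp-low arrays, and Lum at 10.48 lay below them (next 10.66). On A-CRF 1, the other such array, Ucp1 was at 9.75 (next 6.15). On A-CRF 3, S100b was high at 7.01, and Csnk1e at 6.01 and Cd22 at 5.83 were low. On A-CRF 2, Angpt2 was low at 6.40 (next 6.55).

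On Control 3, Adamts1 at 10.22 and Comp at 7.01 were high and Mtus2 at 7.91 was low. On Control 6, Ccl2 was high at 6.29 (next 5.74). None of the 18 circadian genes was among these.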

How the results depend on the processing

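The 12 called probe sets became 25 with trend and robust options, 29 with array weights, 4 with the GAPDH covariate and 7 with the white adipocyte covariate. Leaving out 1 array gave 1 to 17. The other 9 alternatives gave 10 to 14. Signs turned for 4 of 75 named genes, each represented by a probe set that did not pass: Per3 with the mean of its probe sets (0.32, adjusted p 0.032 in limma, where its dimmer probe set had passed alone), Lum without A-CRF 7 (0.00016, and down to -0.16 without another array), and Myocd (0.0028) and S100b (-0.10) with the white adipocyte covariate. Arhgap24 passed in 13 and C1qtnf7 in 9 of 21 alternatives. A clock output gene passed with trend and robust options and with array weights, a fatty acid oxidation gene without A-CRF 1 and without both arrays of high GAPDH difference, and an interferon gene with the white adipocyte covariate. No paired analysis was possible because the labels give the arrays no shared replicate numbers. Differences of genes near the lowest value may be compressed, and 3 against 5 arrays limit precision.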
